A study of Mus musculus with 4 samples.

Results

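The genes described are cadherins, catenins and immunoglobulin-type molecules of cell adhesion in the niche of the muscle stem cell: Cdh15, Cdh2, Cdh4 and Cdh11, Ctnna1, Ctnna2, Ctnnd1 and Jup, and Ncam1 and Mcam. The 10 were chosen by gene symbol. Of these, 8 had a row in the deposited table of 11603 genes, and Cdh11 and Ctnna2 had none and were not analysed here. RNA was sequenced from muscle stem cells sorted from hindlimb muscle of male C57BL/6 mice 4 to 5 months old, as VCAM1+ cells without CD31, CD45 or Sca1. There were 2 libraries labelled conditional Hairless knockout and 2 labelled control. The deposited columns carry the prefixes Fl and Ct; Ct was read as control, and Fl, which the labels do not spell out, as knockout by inference. The gene Hairless (Hr) encodes a nuclear corepressor. The Cre driver, the age at deletion, the alleles carried by the control mice and the number of animals behind a library are not stated by the labels. The p-values therefore reflect only variation among these 4 libraries, which may be technical.

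In resting muscle each stem cell lies between a fibre and the basal lamina around it. Classical cadherins of the 2 membranes bind each other across the narrow gap, each holding in its cytoplasmic tail p120-catenin and either beta-catenin or plakoglobin, and alpha-catenin couples this complex to actin. M-cadherin and N-cadherin are the cadherins best known at this contact, where N-cadherin in particular has been linked to keeping the cell quiescent. The beta-catenin held there is the same protein that carries the canonical Wnt signal.

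The libraries held 34101213 and 21757211 reads on the listed genes in knockout 1 and 2, and 26990809 and 22577330 in control 1 and 2. Values are RPKM, reads divided by exon length and by a library size that the authors set, so levels can be compared between genes of a library. That size was 75.7% and 75.5% of the listed reads in knockout 1 and 2 and 85.9% and 92.4% in control 1 and 2, so it was not the plain sum of reads and its share differed between the groups. Dividing by the plain sum instead turned the sign of the small differences of Ctnna1, Ncam1 and Ctnnd1. Hr itself had 7.15 and 7.90 RPKM in the knockout libraries against 9.28 and 8.94 RPKM in the control libraries, with a limma adjusted p of 0.431, so the transcript was still present, and every direction below rests on that reading of the column names. Of the sorting antigens, Vcam1 had 101 to 155 RPKM over the 4 libraries, Pecam1 (CD31) 5.51 to 11.9 RPKM and Ptprc (CD45) at most 0.0399 RPKM. Ly6a (Sca1) had 77.4 and 80.7 RPKM in knockout against 47.9 and 49.5 RPKM in control. Its adjusted p was 0.152 with limma and 0.404 in the authors' deposited table. Transcripts of the antigens of excluded cells were thus near 0 only for CD45. Of 6 fibro-adipogenic markers, Ly6a among them, 5 were measured, with sums of 341 and 275 RPKM in knockout against 452 and 468 RPKM in control. Of these 5, 1 lay entirely above and 2 entirely below the control values, where 25% and 26.2% of all genes did. The 9 muscle stem cell markers were all measured and summed to 3863 and 4093 RPKM in the knockout libraries against 2910 and 2310 RPKM in the control libraries, most of it from Sdc4. The knockout means of Sdc4, Cd34, Myf5 and Chodl were 1.70-fold, 1.52-fold, 1.36-fold and 1.26-fold the control means with both knockout values above both control values, that of Itga7 was 0.535-fold with both below, and Pax7, Vcam1, Calcr and Cxcr4 overlapped. limma called 0 of the 9, and by the authors' deposited table Sdc4 was higher and Itga7 lower, with adjusted p values of 0.0028 and 0.00849. The stem cell factor gene Pax7 had 9.03 and 13.1 RPKM in the knockout libraries against 8.23 and 12.9 RPKM in the control libraries. The part of these marker differences in the adhesion values was not tested.

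None of the 8 measured genes passed the test between knockout and control cells; with the replicate number added as a block Cdh4 alone did, where that fit called 5.09% of all genes higher and 3.56% lower. At the authors' library size the catenin genes Jup and Ctnna1 were the steadiest, with knockout means 0.997-fold and 1.05-fold the control means. With each library divided by its sum of reads their log2 fold changes were -0.24 and -0.17, beside a median of -0.20 over all genes. Cdh4, the R-cadherin gene, had the largest difference, a knockout mean 1.85-fold the control mean, but its libraries were widely spread. The knockout means of Cdh15, Mcam and Cdh2 were 0.803-fold, 0.792-fold and 0.699-fold the control means, with overlapping groups. limma with Benjamini-Hochberg adjustment over all 11603 genes gave adjusted p values of 0.333 to 0.994 for the members, and 0 of 8 had an unadjusted p under 0.05, also with limma-voom on reads recovered from the RPKM. Over all genes limma called 0% of genes higher and 0.00862% lower, and 18% had an unadjusted p under 0.05. The adjusted p in the authors' deposited table was under 0.05 for 7.84% of all genes and for 0 of the 8 members, with values from 0.161 for Cdh4 to 0.994 for Jup.

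The levels spanned a wide range. Averaged over the 4 libraries, Cdh15 stood at 129 RPKM, Ctnna1 at 60.8, Ncam1 at 38.4, Jup at 29.6, Mcam at 18.1, Ctnnd1 at 5.63, Cdh4 at 5.49 and Cdh2 at 1.48 RPKM. Ctnnd1 and Cdh4 were the only neighbours in this order whose ranges over the 4 libraries overlapped, 5.01 to 6.40 RPKM for Ctnnd1 and 3.08 to 9.54 RPKM for Cdh4. Cdh15 lay at percentile 95.2 of all listed genes by mean RPKM and Cdh2 at percentile 19.5.

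**Figure D1:**
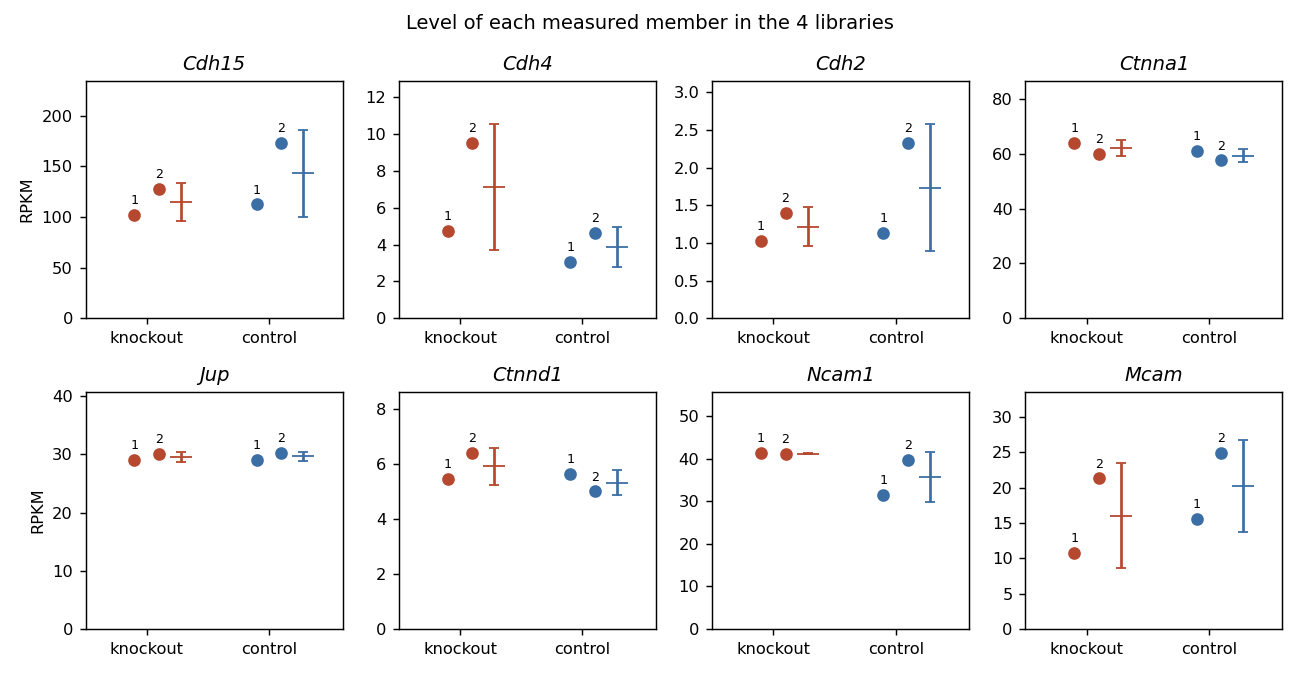
RPKM of the 8 measured genes in each library, 1 panel a gene, with the y axis from 0; dots are the libraries with their replicate numbers, knockout left and control right, and the dash and bar beside them are the mean and SD (n = 2). Jup and Ctnna1 are nearly level across the 4 libraries, while Cdh4, Mcam and Cdh2 differ up to about 2-fold between libraries of 1 group.

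Cdh15 (Entrez gene 12555, chromosome 8, 122848374 to 122867397, plus strand, mm10) encodes M-cadherin, the classical cadherin of satellite cells, myoblasts and their contact with fibres. It had 102 and 128 RPKM in knockout 1 and 2 against 112 and 173 RPKM in control 1 and 2. The control libraries stood farther apart than the knockout ones, and 1 knockout value lay between the 2 control values. The means were 115 ± 18.3 RPKM in knockout and 143 ± 43.2 RPKM in control (SD, n = 2), a log2 fold change of -0.29 (standard error 0.25) and a limma adjusted p of 0.572. The 95% confidence interval of that log2 fold change ran from -0.90 to 0.32, a range from 0.536-fold to 1.25-fold. The sign rested on control 2, because without that library the log2 fold change was 0.02.

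Cdh4 (Entrez gene 12561, chromosome 2, 179442431 to 179899373, plus strand) encodes R-cadherin, a classical cadherin first described in retina and also made by developing muscle. It had 4.72 and 9.54 RPKM in knockout 1 and 2 against 3.08 and 4.63 RPKM in control 1 and 2. Both knockout values were above both control values at the authors' library size. Knockout 1 exceeded control 2 by only 0.0898 RPKM, however, and knockout 2 stood alone. The means were 7.13 ± 3.41 RPKM in knockout and 3.85 ± 1.10 RPKM in control (SD, n = 2). The log2 fold change was 0.76 (standard error 0.36), with a 95% confidence interval from -0.13 to 1.64 and a limma adjusted p of 0.333. It was 0.28 without knockout 2 and 1.23 without knockout 1. With the replicate number as a block the limma adjusted p was 0.0433, but the labels do not say that the numbers pair the libraries.

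Cdh2 (Entrez gene 12558, chromosome 18, 16588877 to 16809246, minus strand) encodes N-cadherin, the other main cadherin of the niche contact and one also used by neurons and Schwann cells. It was the lowest of the 8 members, with 1.03 and 1.40 RPKM in knockout 1 and 2 against 1.14 and 2.33 RPKM in control 1 and 2. Control 2 was the high library and the other 3 lay close together. The log2 fold change was -0.34 (standard error 0.29), with a 95% confidence interval from -1.06 to 0.39 and a limma adjusted p of 0.579, and it was 0.06 without control 2. Between 185 and 393 reads stood behind each value, which by counting alone gives a coefficient of variation of 5.04% to 7.35%, against 21.2% between the knockout libraries and 48.7% between the control libraries.

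Set against each other in 1 library, the 3 cadherins kept the same order everywhere, with Cdh15 far above Cdh4 and Cdh4 above Cdh2. Cdh15 made up 94.7% and 92.1% of their summed RPKM in knockout 1 and 2, against 96.4% and 96.1% in control 1 and 2. The share of Cdh4 was 4.39% and 6.88% in the knockout libraries against 2.64% and 2.57% in the control libraries, so the control libraries agreed closely and both knockout libraries were higher. The share of Cdh2 was 0.960% and 1.01% in knockout against 0.977% and 1.29% in control, and overlapped. These shares do not depend on how a library is scaled. They are given as a description, with no test. The summed RPKM itself was 108 and 139 in the knockout libraries against 117 and 180 in the control libraries.

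Ctnna1 (Entrez gene 12385, chromosome 18, 35118888 to 35254773, plus strand) encodes alpha-E-catenin, the actin-linking catenin of most tissues. It had 64.2 and 60.1 RPKM in knockout 1 and 2 against 61.2 and 57.6 RPKM in control 1 and 2. The groups overlapped and the 4 libraries lay within a narrow band. The log2 fold change was 0.06 (standard error 0.13), with a 95% confidence interval from -0.26 to 0.39 and a limma adjusted p of 0.833. Changes beyond 0.833-fold or 1.31-fold were thus outside the interval for this gene at the authors' library size. With each library divided by its sum of reads the log2 fold change was -0.17, so those bounds do not hold for other scalings.

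Jup (Entrez gene 16480, chromosome 11, 100368958 to 100397763, minus strand) encodes plakoglobin, or gamma-catenin, the close relative of beta-catenin that also serves in desmosomes. It had 29.0 and 30.1 RPKM in knockout 1 and 2 against 29.1 and 30.2 RPKM in control 1 and 2, and the 4 values lay within about 1 RPKM of each other. The means were 29.6 ± 0.797 RPKM in knockout and 29.7 ± 0.769 RPKM in control (SD, n = 2). The log2 fold change was -0.00404 with a 95% confidence interval from -0.33 to 0.32 and a limma adjusted p of 0.994. The interval is wider than the spread of these 4 values because limma shares information on the spread between genes. With each library divided by its sum of reads the log2 fold change of Jup was -0.24. Ctnnb1, named after its values were seen, encodes beta-catenin, which binds the same site on the cadherin tail as plakoglobin. It had 93.2 and 87.3 RPKM in knockout against 87.7 and 84.9 RPKM in control. The RPKM ratio of Ctnnb1 to Jup was 3.21 and 2.90 in knockout against 3.01 and 2.81 in control.

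Ctnnd1 (Entrez gene 12388, chromosome 2, 84600071 to 84650765, minus strand) encodes p120-catenin, which binds the cadherin tail next to the membrane and slows its removal from the surface. It had 5.45 and 6.40 RPKM in knockout 1 and 2 against 5.65 and 5.01 RPKM in control 1 and 2, and the groups overlapped. The log2 fold change was 0.14 (standard error 0.18), with a 95% confidence interval from -0.30 to 0.58 and a limma adjusted p of 0.713. In the GENCODE annotation of the same build its exons share 4482 bases with the readthrough gene model Gm28635 on the same strand, so reads of the 2 cannot be told apart. Ctnna1 exceeded Ctnnd1 11.8-fold and 9.40-fold in the knockout libraries against 10.8-fold and 11.5-fold in the control libraries. The RPKM of Ctnna1, Jup and Ctnnd1 summed to 98.6 and 96.7 in knockout 1 and 2 against 96.0 and 92.9 in control 1 and 2.

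Ncam1 (Entrez gene 17967, chromosome 9, 49502136 to 49798925, minus strand) encodes the neural cell adhesion molecule, an immunoglobulin-family protein found on satellite cells, on fibres that have lost their nerve and on Schwann cells. It had 41.3 and 41.1 RPKM in knockout 1 and 2 against 31.5 and 39.8 RPKM in control 1 and 2. The knockout libraries were almost equal and both lay above the control ones, by 1.26 RPKM at the nearest. The means were 41.2 ± 0.157 RPKM in knockout and 35.6 ± 5.90 RPKM in control (SD, n = 2), a log2 fold change of 0.22 (standard error 0.16), a 95% confidence interval from -0.19 to 0.62 and a limma adjusted p of 0.527. With each library divided by its own sum of reads, all genes shifted by a median of -0.19 and Ncam1 stood at -0.0186. Ncam1 and Cdh4 were the 2 of 8 members whose knockout values both lay above both control values, and 0 of 8 had both below. These counts depend on the authors' library size, whose share of the reads differed between the groups. They were not taken with each library divided by its sum of reads. Of all genes, 25% lay entirely above and 26.2% entirely below, 51.2% in either direction, so non-overlap was not more frequent in the 8 members than in the whole table.

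Mcam (Entrez gene 84004, chromosome 9, 44134469 to 44142727, plus strand) encodes CD146, an adhesion molecule of endothelial cells and pericytes that is also made by myogenic cells. It had 10.7 and 21.3 RPKM in knockout 1 and 2 against 15.6 and 24.9 RPKM in control 1 and 2. Within each group library 2 was the higher, 1.98-fold in knockout and 1.595-fold in control, and these gaps were larger than the one between the groups. The log2 fold change was -0.37 (standard error 0.37), with a 95% confidence interval from -1.29 to 0.55 and a limma adjusted p of 0.635. Without knockout 1 it was 0.11. In bulk samples such as these, fewer cells of a type and less RNA per cell cannot be told apart.

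Markers of vessel cells also differed between libraries of 1 group. All 8 of 8 endothelial markers were measured, and their RPKM summed to 40.5 and 71.7 in knockout 1 and 2 against 53.2 and 68.8 in control 1 and 2, lowest in knockout 1 as for Mcam. All 8 of 8 mural cell markers were measured, and their sum was 281 and 377 in knockout against 503 and 713 in control, most of it from Acta2 and Tagln, which myogenic cells can also make. The mural marker Rgs5 had 10.2 and 24.0 RPKM in knockout against 16.1 and 13.6 RPKM in control. The part of these cells in the Mcam values was not tested. For Schwann cells, which make Ncam1 and Cdh2, 4 of 7 markers were measured, with sums of 8.30 and 19.3 RPKM in knockout against 16.7 and 18.9 RPKM in control, and for these too the part was not tested.

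Cells further along in differentiation also carry Cdh15 and Ncam1, and most of their markers had lower values in the knockout libraries. Of 6 markers of committed myocytes 5 lay entirely below the control values, as did 26.2% of all genes, with sums of 38.5 and 47.0 RPKM in knockout 1 and 2 against 206 and 344 RPKM in control 1 and 2. Of 10 myofibre markers 8 were measured and 7 lay entirely below. Their sums were 66.6 and 55.7 RPKM in knockout against 181 and 750 RPKM in control, highest in control 2 as for Cdh15 and Cdh2. Most of the control 1 sum was from Acta1, with 36.5 and 31.9 RPKM in knockout against 144 and 455 RPKM in control. Ckm, Pvalb, Tnni2 and Mylpf were high in control 2 alone. Ckm had 3.39 and 2.93 RPKM in knockout against 3.63 and 39.4 RPKM in control. Tnnt3 was also high in control 2 alone and overlapped, while Myh1 and Atp2a1 lacked this pattern. By the adjusted p of the authors' deposited table, knockout was lower for 5 of the 6 and 7 of the 8, against 4.26% of all genes, while limma called 0 of either list. The part of such cells in the cadherin values was not tested.

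**Figure D2:**
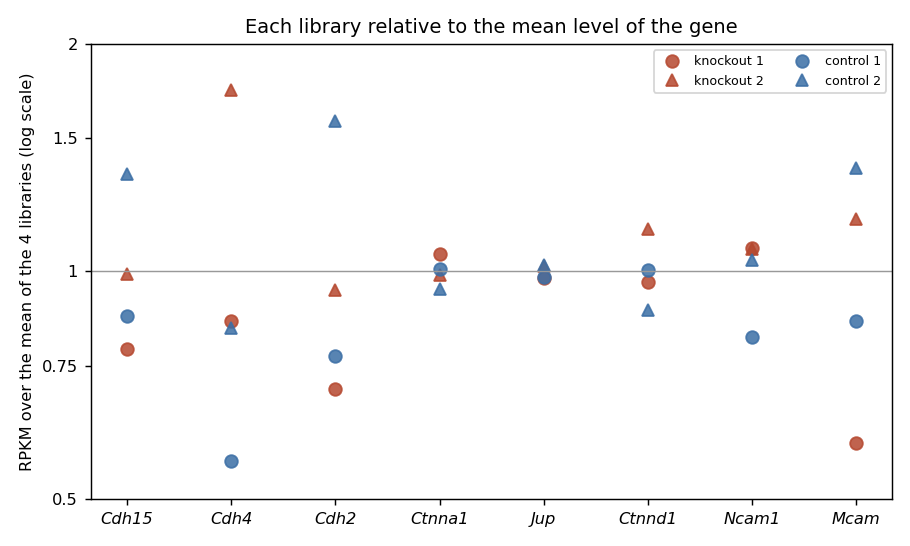
RPKM in each library over the mean of the 4 libraries, on a log axis, for the 8 measured genes; red marks the knockout and blue the control libraries, circles library 1 and triangles library 2. For Cdh15, Cdh2, Mcam and Jup the order from low to high is knockout 1, control 1, knockout 2, control 2, with values for Jup almost on top of each other.

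The library order was shared by 4 of the 8 measured members. Cdh15, Cdh2, Mcam and Jup all ran, from low to high, knockout 1, control 1, knockout 2 and control 2, an order held by 770 of the 11603 genes, or 6.64%. For Jup the same-numbered libraries differed by less than its counting coefficient of variation of 1.44% to 1.77%, so its order is not resolved. The order was taken at the authors' library size alone, and another library size can change it. For Cdh15, Cdh2 and Mcam library 2 exceeded library 1 by 1.25-fold, 1.35-fold and 1.98-fold among the knockout libraries, and by 1.54-fold, 2.05-fold and 1.595-fold among the control libraries. Cdh4 also had the higher value in library 2 of each group, by 2.02-fold in knockout and 1.503-fold in control. Jup differed by 1.04-fold in both groups, and the medians of all genes with a mean of at least 1 RPKM were 1.01-fold and 0.994-fold. Of the 8 members 5 were higher in library 2 in both groups, against 34.4% of all genes. The members share their libraries, and the order was noticed in the values, so it is a description.

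**Figure D3:**
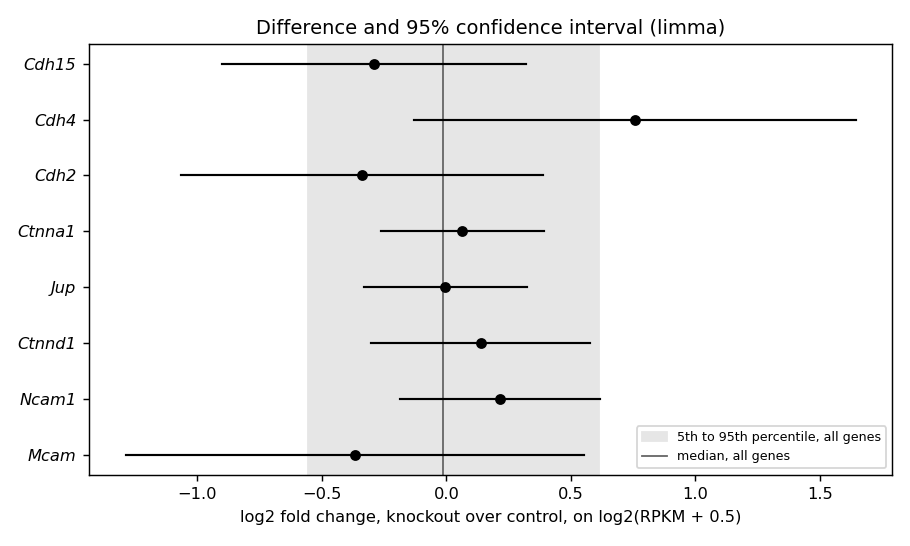
Log2 fold change of knockout over control on the log2(RPKM + 0.5) scale for the 8 measured genes, with dots for the limma estimate and lines for its 95% confidence interval; the grey band runs from the 5th to the 95th percentile of all genes and the vertical line is their median. Every interval includes 0, and Cdh4 alone has an estimate outside the band, at 0.76 against an upper edge of 0.61.

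The estimates for the 8 members had a median of 0.03, with 4 above 0 and 4 below, beside a median of -0.01 over all 11603 genes. With each library divided by its sum of reads 1 was above and 7 were below 0, with a median of -0.20 for the members and -0.20 for all genes, and with median-centred libraries 5 were above and 3 below. The middle 90% of all genes ran from -0.56 to 0.61. Among the members the intervals were narrowest for Ctnna1 and Jup and widest for Cdh4 and Mcam. Mcam had 929 to 1739 reads, a counting coefficient of variation of at most 3.28%, while its libraries varied by 46.6% in knockout and 32.4% in control, and Cdh4 had 518 to 1137 reads, at most 4.39%, against 47.8% and 28.4%.

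Around these members, 7 lists of related adhesion genes named 118 genes, of which 75 were measured. limma called 0 of the 75 after adjustment over all genes, as did limma-voom on the recovered reads. By the authors' deposited table, of the 75 genes 4 were lower in knockout and 0 higher, where 4.26% of all genes were lower and 3.59% higher. Beside the counts of each list below, 25% of all genes lay entirely above and 26.2% entirely below the control values. An unadjusted p under 0.05 was found for 18% of all genes with limma and for 2141 of 11603 with limma-voom.

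The estimates for other cadherins were negative. Of 19 listed, 4 were measured, all 4 had a log2 fold change below 0, and the median log2 fold change was -0.44, or -0.28 without knockout 1. All 4 were also below 0 with each library divided by its sum of reads and with median-centred libraries. The sign of Cdh5 rested on knockout 1, however, because its value in knockout 2 lay below neither control value. Cdh6 and Cdh23 were low, with means of 1.75 and 0.395 RPKM over the 4 libraries. Groups did not overlap for 3 of the 4, all lower, where 26.2% of all genes lay entirely below; limma gave 1 an unadjusted p under 0.05 and limma-voom also 1. The most abundant was Cdh13, T-cadherin, which is held to the membrane by a lipid anchor and lacks the catenin-binding tail. It had 34.8 and 38.7 RPKM in knockout 1 and 2 against 48.7 and 47.3 RPKM in control 1 and 2, and both knockout libraries were lower. Its log2 fold change was -0.38 (standard error 0.14) with a limma adjusted p of 0.238, and in the authors' deposited table its adjusted p was 0.273. By mean RPKM Cdh13 was above every cadherin among the members except Cdh15. Cdh5, the cadherin of endothelial cells and the next most abundant, had 1.97 and 5.27 RPKM in knockout against 4.48 and 5.26 RPKM in control, and knockout 1 alone was low.

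Of 21 protocadherins and large cadherins 9 were measured, 7 with negative and 2 with positive estimates (8 and 1 with each library divided by its sum of reads, 6 and 3 with median-centred libraries), and the median was -0.26, or -0.12 without control 1. In all, 5 lay entirely below the control values and 1 above, where 26.2% of all genes lay entirely below and 25% above. limma gave 1 lower an unadjusted p under 0.05, and limma-voom gave 1 lower and 1 higher. The most abundant were Pcdh18, with 14.99 and 8.95 RPKM in knockout against 15.2 and 10.2 RPKM in control, and Pcdh7, with 3.27 and 3.13 RPKM in knockout against 3.90 and 3.98 RPKM in control. For Pcdh18 the libraries of each group stood farther apart than the groups, and for Pcdh7 both knockout libraries were lower.

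Catenins and adaptors of the adherens junction, 22 of 24 measured, had a median of -0.11, with 6 entirely below and 4 entirely above the control values. limma gave 0 of them an unadjusted p under 0.05 and limma-voom gave 1. Ajuba alone was lower in the authors' deposited table, with an adjusted p of 0.00949. Ajuba, a LIM-domain protein that binds alpha-catenin, had 1.03 and 1.63 RPKM in knockout 1 and 2 against 1.80 and 4.05 RPKM in control 1 and 2, and control 2 stood high. Its log2 fold change was -0.84 (standard error 0.36) with a limma adjusted p of 0.301. Of 11 desmosome genes 3 were measured at all, with means of at most 1.86 RPKM and a median of 0.18. limma gave 1 higher and 1 lower an unadjusted p under 0.05, and limma-voom gave 0 higher and 1 lower. The plakophilin gene Pkp1 had 0.0771 and 0.109 RPKM in knockout against 0.283 and 0.257 RPKM in control. It had 9 to 33 reads in each library, and its adjusted p was 0.195 with limma and 0.0346 in the authors' deposited table. Perp, the most abundant and named after its values were seen, had 2.44 and 2.21 RPKM in knockout against 1.57 and 1.23 RPKM in control. Its adjusted p was 0.205 with limma and 0.155 in the authors' deposited table. Plakoglobin, which desmosomes also use, was at 29.0 to 30.2 RPKM.

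Nectins and immunoglobulin adhesion molecules, 17 of 22 measured, had a median of 0.03, with 2 entirely above and 2 entirely below. limma gave 1 higher and 1 lower an unadjusted p under 0.05, and limma-voom likewise. Cadm2, a synaptic cell adhesion molecule, had 1.003 and 1.02 RPKM in knockout 1 and 2 against 2.37 and 1.47 RPKM in control 1 and 2, with an adjusted p of 0.0272 in the authors' deposited table and 0.227 with limma.

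Promyogenic receptors that bind cadherins at the surface, Cdon and Boc, and their signalling partners were measured for 9 of 9, with a median of 0.05, 2 entirely above and 1 entirely below, and 1 unadjusted p under 0.05 with limma and 1 with limma-voom. The most abundant were Cdc42, a small GTPase of actin control, with 359 and 353 RPKM in knockout against 312 and 265 RPKM in control, and Bnip2, a scaffold protein that binds Cdon, with 38.4 and 33.3 RPKM in knockout against 39.9 and 38.7 RPKM in control. Both Cdc42 values in knockout were above both in control, and both Bnip2 values below, with limma adjusted p values of 0.361 for Cdc42 and 0.652 for Bnip2.

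Of 12 genes for cadherin shedding and polysialylation of the Ncam1 protein 11 were measured, with a median of 0.03, 5 entirely below and 1 entirely above. limma gave 1 higher and 2 lower an unadjusted p under 0.05, whereas limma-voom gave 0 higher and 3 lower. Ncstn, which encodes nicastrin, a subunit of the gamma-secretase that cuts cadherin stubs and Notch in the membrane, had 25.1 and 26.4 RPKM in knockout 1 and 2 against 40.2 and 49.4 RPKM in control 1 and 2. Both knockout libraries were far below both controls. Its log2 fold change was -0.78 (standard error 0.16), with a limma adjusted p of 0.153 and an adjusted p of 0.0018 in the authors' deposited table. Other subunit genes were mixed. Aph1a had 2.96 and 4.38 RPKM in knockout against 5.15 and 5.33 RPKM in control, with both knockout values below and a limma adjusted p of 0.319. Psenen had 69.5 and 79.0 RPKM in knockout against 58.8 and 55.3 RPKM in control, with both above and a limma adjusted p of 0.254. Psen2 and Aph1b overlapped between the groups.

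**Figure D4:**
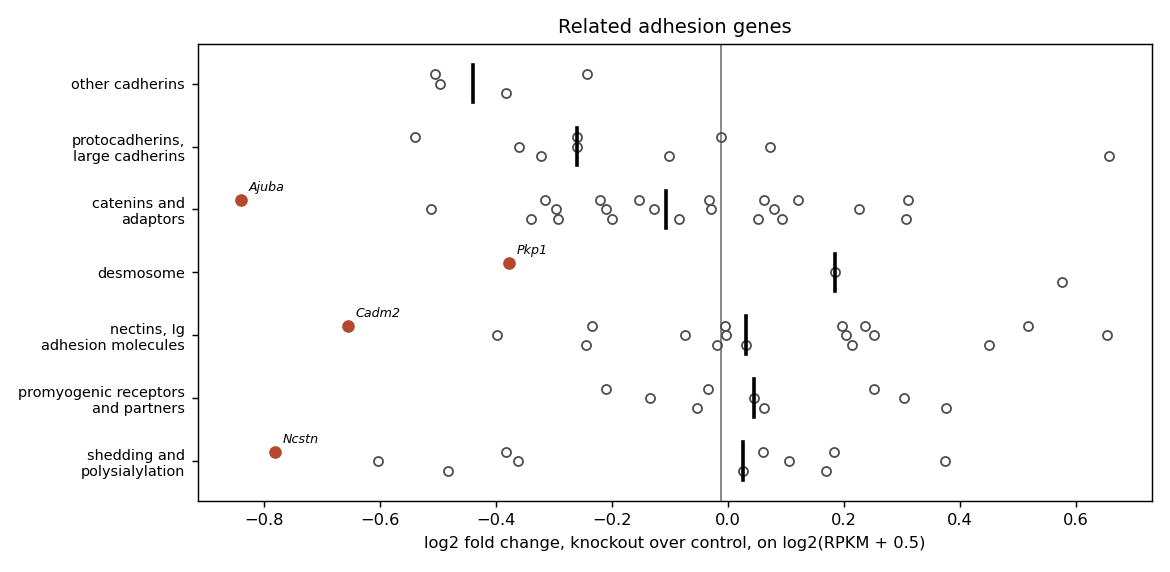
Log2 fold change of knockout over control on the log2(RPKM + 0.5) scale for the 75 measured related adhesion genes, 1 circle a gene, by list; black bars are list medians, the grey line is the median of all genes, and filled red circles mark the 4 genes below 0.05 by the authors' deposited adjusted p. The 4 filled circles, Ajuba, Ncstn, Cadm2 and Pkp1, all lie below 0, and the bar for the other cadherins is at -0.44.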

How the data were processed

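The authors deposited 1 table of 11603 genes with values per library, which behave as RPKM: with a tolerance of 0.01 reads, 100% of values times gene length were whole multiples of 1 step per library. Reads were handled with STAR, featureCounts, Trim Galore and edgeR on mm10, per the submitters' processing notes, with versions, settings and the gene filter not given in the sources used here. Columns starting with Ct were taken as control and those starting with Fl as knockout. The authors' deposited q-value per gene is quoted as such. limma 3.58.1 in R 4.3.3, run with its trend option on log2(RPKM + 0.5) for the whole table and with genotype as the sole term, gave log2 fold changes, on a scale that understates changes of low genes. P-values were adjusted by the Benjamini-Hochberg method with a threshold of 0.05. The fit was also run on simulated reads without library effects. Their spread was less than Cdh15, Cdh4, Mcam and Cdh2 showed, and less than Ncam1 showed in control. That run therefore does not tell how many true changes the fit would miss in these libraries. The members and lists were chosen with earlier results of these data known. Of each related list, genes past the threshold were named, then up to 6 with a deposited value under 0.05, or else the 2 most abundant. List genes were matched by symbol or Entrez ID, and marker sums add RPKM over a list. The alternatives tried are described with the dependence on processing. No sequences are shown.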

Additional observations from a re-analysis of the deposited data

How the results depend on the processing

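The 8 members were fitted under 12 alternatives each, 96 fits in all. In 86 of these the sign and the side of the threshold were kept, in 9 the sign changed without a call, and in 1 a call appeared. That call was Cdh4 with the replicate number as a block, where its log2 fold change was 0.76 with a limma adjusted p of 0.0433, against 0.166 to 0.677 when single libraries were left out and 0.286 to 0.394 under the other alternatives. Deviations of same-numbered libraries correlated at 0.414 across 10007 genes, but the labels do not say what a number stands for and there are only 2 pairs, so the pairing is not established. With the block limma called 591 genes higher and 413 lower over the whole table, against 0 and 1 without it, and the other 7 members were not called. Scaled by the reads listed, Ctnna1 was at -0.17, Ncam1 at -0.0186, Ctnnd1 at -0.0778 and Jup at -0.24. With median-centred libraries Jup was at 0.0275. With single libraries left out, Cdh15 ranged from -0.60 without control 1 to 0.0218 without control 2, Cdh2 from -0.73 to 0.0568 likewise, Mcam from -0.85 without knockout 2 to 0.11 without knockout 1, and Jup from -0.0311 to 0.0230 likewise. limma-voom called 3 genes higher and 8 lower, limma without a trend 0 lower, and leaving out single libraries gave 0 to 1 higher and 0 lower each time.

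Scaling by the reads listed, which shifted the median of all genes by -0.19, gave list medians of -0.19 for the promyogenic receptors, -0.29 for the catenins and adaptors and -0.63 for the other cadherins. With single libraries left out, medians ran from -0.0522 to 0.18 for the promyogenic receptors, from -0.18 to -0.0433 for shedding and polysialylation, from 0.0181 to 0.35 for the desmosome genes, from -0.42 to -0.28 for the other cadherins, from -0.29 to -0.12 for the protocadherins, from -0.13 to -0.0380 for the catenins and adaptors, from -0.0117 to 0.15 for the nectins and from 0.000412 to 0.0662 for the members. The desmosome median was 0.58 with a mean of at least 1 RPKM and 0.36 with limma-voom. The cause of these shifts was not tested.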
